A study of Homo sapiens with 4 samples.

Results

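The genes described here are 26 genes of cholesterol and fatty acid synthesis, a named list that was chosen by function: 17 enzymes of sterol synthesis, 3 genes of sterol regulation and transport, and 6 genes of fatty acid synthesis and desaturation. Of these 26 genes, 23 had at least 1 probe set with a single gene symbol, among 19775 genes with such a probe set on the array, and 22 were measured in both cell lines. MVD, the decarboxylase that makes isopentenyl diphosphate, was below the signal filter, with signals of 18.84, 16.88, 18.74 and 18.69. CYP51A1, the lanosterol demethylase, and FADS1, the delta-5 desaturase, lay only on probe sets that carry several symbols, and no probe set was named for FDFT1, the squalene synthase. These 3 genes were not analysed here. The measured genes were 14 sterol enzymes, the 3 genes of regulation and transport, and 5 genes of the fatty acid arm.

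RNA came from 2 established human lung cancer lines of epithelial type, A549 and NCI-H358. Each line was stably transduced, with antibiotic selection, to carry no insert (empty vector) or to express CHST11, the Golgi enzyme that sulfates chondroitin chains. The 4 groups were A549 with empty vector, A549 with CHST11 vector, NCI-H358 with empty vector and NCI-H358 with CHST11 vector, with 1 array in each, and signals on the 4 arrays are given in this order throughout. All 4 groups carry an integrated vector, the labels name no vector promoter, and they do not say whether the transduced cells were pools or clones.

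Cholesterol is built from acetyl-CoA through mevalonate, squalene and lanosterol, and fatty acids are built from acetyl-CoA through malonyl-CoA. Most genes of both routes are transcribed under SREBP factors, which are released from the endoplasmic reticulum by SCAP when sterols are scarce and are held back there by INSIG proteins when sterols are plentiful. SREBP-2, from SREBF2, acts mainly on sterol genes and SREBP-1, from SREBF1, mainly on fatty acid genes, and INSIG1 is itself an SREBP target. Alveolar epithelium, from which lung adenocarcinomas can arise, makes lipid for surfactant.

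The 250 bases before the start site are shown for 5 genes. INSIG1 and HMGCS1 stand for the sterol arm, and SCD and FADS2 for the fatty acid arm. SREBF2 is the single gene in which a sterol regulatory element was found. The sequences are from RefSeq in build GRCh38.p14, written 5′ to 3′ on the strand of the gene, at chr7:155297628-155297877 (plus strand) for INSIG1, chr5:43313413-43313662 (minus strand) for HMGCS1, chr10:100346983-100347232 (plus strand) for SCD, chr22:41832855-41833104 (plus strand) for SREBF2 and chr11:61816154-61816403 (plus strand) for FADS2. Capitals mark the letters of the searched motifs on either strand: the sterol regulatory element TCACNCCAC, the CCAAT box CCAAT and the GC box GGGCGG. Where a gene had several windows, the one with the most motif matches is shown.
INSIG1: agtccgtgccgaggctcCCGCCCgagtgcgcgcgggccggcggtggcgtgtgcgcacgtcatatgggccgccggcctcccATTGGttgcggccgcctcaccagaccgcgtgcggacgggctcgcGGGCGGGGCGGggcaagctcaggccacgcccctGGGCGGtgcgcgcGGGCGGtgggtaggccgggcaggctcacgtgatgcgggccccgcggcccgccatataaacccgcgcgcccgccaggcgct
HMGCS1: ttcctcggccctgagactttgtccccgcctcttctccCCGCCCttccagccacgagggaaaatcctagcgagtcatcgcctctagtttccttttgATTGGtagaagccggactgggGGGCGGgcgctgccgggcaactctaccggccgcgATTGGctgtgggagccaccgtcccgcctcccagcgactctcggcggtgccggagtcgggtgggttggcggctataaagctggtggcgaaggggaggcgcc
SCD: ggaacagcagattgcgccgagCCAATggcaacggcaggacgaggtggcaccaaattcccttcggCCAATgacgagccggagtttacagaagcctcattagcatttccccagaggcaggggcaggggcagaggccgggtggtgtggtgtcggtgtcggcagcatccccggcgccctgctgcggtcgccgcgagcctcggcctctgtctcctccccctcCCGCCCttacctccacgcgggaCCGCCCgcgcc
SREBF2: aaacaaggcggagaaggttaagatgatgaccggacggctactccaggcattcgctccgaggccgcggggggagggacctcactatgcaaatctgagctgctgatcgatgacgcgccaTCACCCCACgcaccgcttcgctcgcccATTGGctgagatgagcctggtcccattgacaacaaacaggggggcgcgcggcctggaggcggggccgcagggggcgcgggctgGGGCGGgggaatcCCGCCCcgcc
FADS2: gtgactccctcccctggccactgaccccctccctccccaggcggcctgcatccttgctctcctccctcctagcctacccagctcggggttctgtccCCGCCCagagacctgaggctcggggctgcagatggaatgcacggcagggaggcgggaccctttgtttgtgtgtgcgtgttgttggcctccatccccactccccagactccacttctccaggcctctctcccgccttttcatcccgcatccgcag

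INSIG1 had 1 CCAAT box, 170 bases before its start, and 5 GC boxes, of which a neighbouring pair overlaps. HMGCS1 and SCD each had 2 CCAAT boxes and 2 GC boxes. SREBF2 held the sterol regulatory element 133 bases before its start, with a CCAAT box at 106 and GC boxes at 23 and 10. FADS2 had 1 GC box and no CCAAT box in the stretch shown. Windows from 250 bases before to 50 after the start were matched for 23 of the 26 genes (31 windows), and FDFT1, SQLE and FASN were not matched. A CCAAT box was in 22 of the 31 windows (71.0%), against 34.6% of all 35116 windows of the table. A GC box was in 27 (87.1%, against 45.0%), and both were in 20 (64.5%, against 14.4%). The sterol regulatory element spelled as above was in 1 window (3.2%, against 1.1%). Some windows of the same gene overlap, so the same letters can count more than once. The windows of the whole table were not limited to genes measured here. A match is a description of these letters and was not tied to binding of a factor in these cells.

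CHST11 itself gave signals of 129, 343.5, 220.1 and 1058 on its representing probe set, 2.66-fold higher with its vector in A549 and 4.8-fold higher in NCI-H358, in the direction of the labels. Its other probe sets stayed between -0.16 and 0.14 on the log2 scale. The median signals of the 4 arrays were between 15.9 and 16.31. The keratin genes KRT7, KRT8 and KRT18 were measured in both lines and were higher in A549. ELF3 was also higher in A549 (284 and 371.4) than in NCI-H358 (119.1 and 113.9). EPCAM was lower in A549 (209.8 and 123) than in NCI-H358 (4684 and 5599). So were KRT19 (87.64 and 81.96 against 1690 and 1752) and CDH1 (810.5 and 833.2 against 3506 and 4243). CLDN4 was below the floor in A549, with 278.3 and 255.7 in NCI-H358. The A549 marker list (AKR1B10, AKR1C1, ALDH1A1, ALDH3A1 and NQO1) was higher in A549 for 5 of 5 measured genes. Of the markers of fibroblasts, leukocytes and endothelium, 2 of 7, 3 of 7 and 1 of 4 were measured in A549 and 1, 2 and 1 in NCI-H358. LCP1, a leukocyte marker, gave 438.2 and 403.8 in NCI-H358, and CD14 was 1.59-fold higher with CHST11 in A549 (24.21 and 38.41). COL1A1 (152.5 to 170.2), PECAM1 (34.58 to 39.96) and ITGB2 (28.11 to 29.47) were measured in both lines, and THY1 (33.51 and 40.93) and CD3E (27.1 and 25.96) in A549. DCN lay between the floor and the filter. COL1A2, COL3A1, LUM, PDGFRB, PTPRC, VWF, CDH5 and KDR were below the floor on all 4 arrays. With CHST11 in A549, genes with long mRNAs were lower, with a median log2 ratio of -0.57 (35 of 36 below 0), and 7 of 7 measured genes of the mitochondrial genome were higher, with a median of 0.73. In NCI-H358 the same medians were 0.13 (27 of 36 long mRNAs above 0) and -0.14. The part of these shifts in the values below was not tested.

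The comparison of vectors within a line sets the CHST11 culture against the empty vector culture of that line. With 1 array on each side it had no test. Differences due to CHST11 cannot be told apart from other differences between the cultures. Ratios are log2 of CHST11 over empty vector, from signals floored at 16.14, and a gene was measured in a line when its signal was at least 27 on 1 or both arrays of it. The gauge of error is the SD of the ratio between probe sets of 1 gene, 0.158 in A549 and 0.173 in NCI-H358. It covers measurement only and not differences between cultures.

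In NCI-H358, 18 of the 22 measured genes had a ratio above 0, with a median of 0.18, against 50.7% of all 11395 measured genes and a median of 0.003. The ratio was above the gauge of error of 0.173 for 11 of the 22 and below its negative for 1, against 17.6% and 12.7% of all measured genes, and the other 10 lay within it. This count was added after seeing the data. Both ends of the range belonged to genes past 1.5-fold. INSIG1 and TM7SF2 were higher and FADS2 was lower by at least this factor, and no gene of the list reached 2-fold. Of all measured genes, 0.895% were at least 1.5-fold higher and 0.272% at least 1.5-fold lower. At 1.2-fold, a limit added after seeing the data, 9 of the 22 were higher and 1 was lower, against 9.42% and 5.06% of all measured genes. A lower signal in such bulk RNA can come from fewer cells that express a gene or from less RNA per cell, and these cannot be told apart.

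In A549 the same genes stayed close to 0. Of the 22 genes, 14 had a ratio above 0, with a median of 0.011, against 54.7% and 0.013 for all 11448 measured genes. None was 1.5-fold apart in either direction, where 0.489% of all measured genes were higher and 0.716% lower. On the representing probe sets none was 1.2-fold apart either, against 5.4% higher and 6.04% lower. With the median of probe sets, SREBF2 (0.45) and SCD (0.31) were more than 1.2-fold higher (0.26 on the log2 scale). The widest ratios were 0.22 for NSDHL and -0.25 for FASN. Whether the ratios of the lines differ was not tested, since each line has a single ratio.

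**Figure D1:**
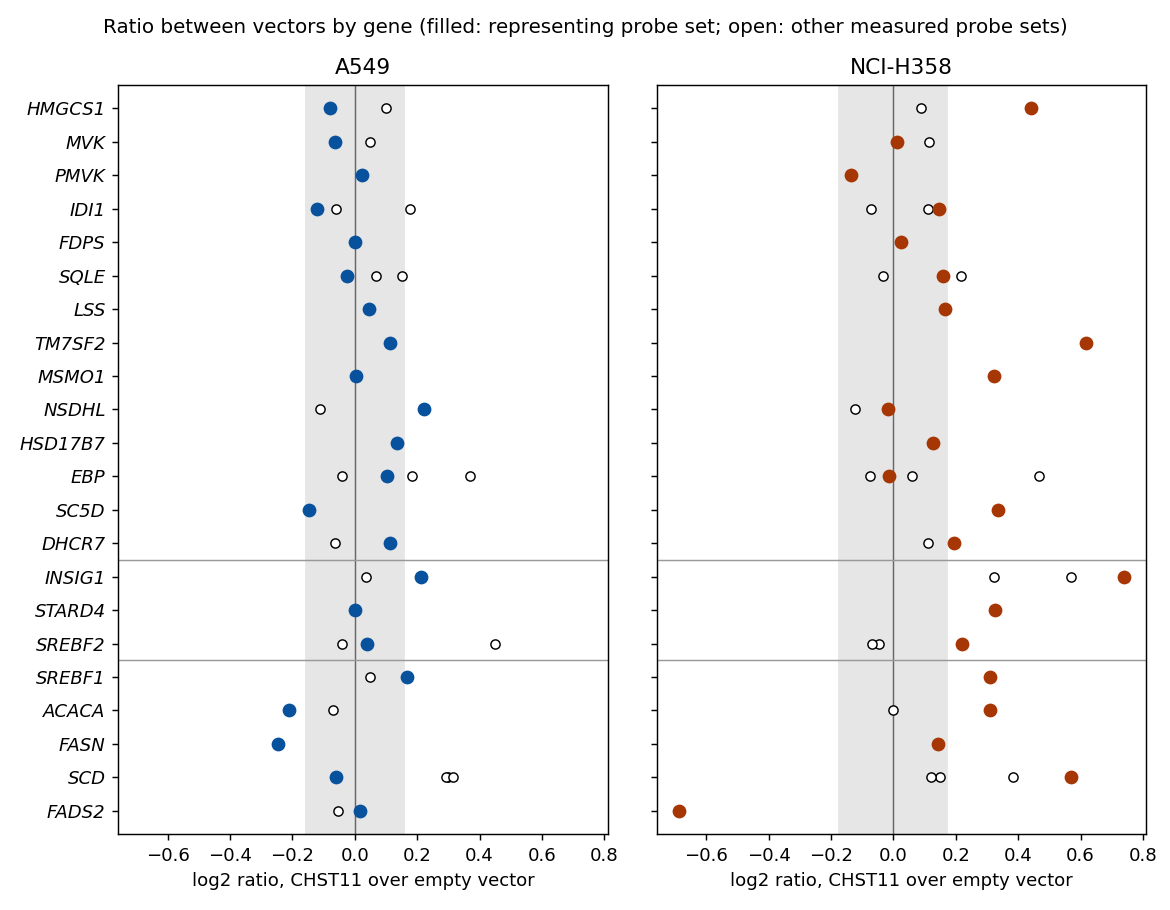
The log2 ratio of signals, CHST11 over empty vector, for each of the 22 measured genes (rows) in A549 (left) and NCI-H358 (right); filled points are the representing probe set, open points the other measured probe sets of the gene, and the grey band is 1 SD of the ratio between probe sets of 1 gene (0.158 and 0.173). In A549 the filled points lie between -0.25 and 0.22; in NCI-H358 they reach from -0.69 for FADS2 to 0.74 for INSIG1.

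Among the genes of sterol regulation and transport, all 3 had a ratio above 0 in both lines, with medians of 0.038 in A549 and 0.33 in NCI-H358. Of all measured genes, 54.7% were above 0 in A549 and 50.7% in NCI-H358. In A549, STARD4 (0.001) and SREBF2 (0.038) lay well within the gauge of 0.158. INSIG1, the endoplasmic reticulum protein that holds SCAP back, gave signals of 361.5, 418.6, 151.5 and 252.9. Its ratio was 0.21 in A549 and 0.74 (1.67-fold) in NCI-H358. The A549 arrays were both above the NCI-H358 arrays, and the NCI-H358 array with empty vector was the lowest. All 3 probe sets of INSIG1 were higher with CHST11 in both lines, from 0.04 to 0.21 in A549 and at 0.32, 0.57 and 0.74 in NCI-H358. STARD4, which carries cholesterol between membranes, had signals of 156.1, 156.2, 173.7 and 217.6 and a ratio of 0.33 in NCI-H358. SREBF2, which encodes SREBP-2, had 161, 165.3, 138.7 and 161.5 on its representing probe set, a ratio of 0.22 in NCI-H358. Its other probe sets gave -0.05 and -0.07 there, so the probe sets differ in sign, and the brighter of these gave 0.45 in A549.

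The sterol enzymes had a median ratio of 0.15 in NCI-H358, with 11 of 14 above 0, and of 0.014 in A549, with 9 of 14 above 0. With the measured probe set of each gene whose ratio was nearest 0, a rule added after seeing the data, the NCI-H358 median was 0.057. The median of long mRNAs in NCI-H358 was 0.13. In the mevalonate steps, HMGCS1, which makes HMG-CoA, had signals of 268.7, 254.5, 178.4 and 242.3. Its NCI-H358 ratio was 0.44 (1.36-fold) on this probe set and 0.09 on the other. The kinases MVK and PMVK lay between -0.14 and 0.02 in both lines. IDI1, which isomerizes isopentenyl diphosphate, had 1193, 1097, 684.5 and 758, with ratios of -0.12 and 0.15. FDPS, which makes farnesyl diphosphate, had ratios of 0.00 and 0.02.

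In the squalene and lanosterol steps, the NCI-H358 ratios of the epoxidase SQLE and the cyclase LSS were 0.16 and 0.17, near the gauge of 0.173. SQLE gave signals of 1454, 1429, 1108 and 1236, and LSS gave 398, 410.7, 305 and 342.5. For both enzymes the 2 NCI-H358 arrays were below the 2 A549 arrays, and the array with CHST11 was the higher one in NCI-H358. TM7SF2, a sterol C14 reductase, had signals of 77.25, 83.56, 25.25 and 38.77. Its ratio was 0.11 in A549 and 0.62 (1.54-fold) in NCI-H358. It rests on 1 probe set, and its NCI-H358 signal with empty vector was under the filter of 27.

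Among the later steps, MSMO1, the C4 methyl oxidase, had signals of 928.6, 931.4, 958.8 and 1198, a ratio of 0.32 in NCI-H358 and 0.00 in A549. SC5D, the lathosterol desaturase, had 279.6, 252.5, 428.2 and 540.1, with ratios of -0.15 and 0.33. For both genes the NCI-H358 array with CHST11 was the highest of the 4. DHCR7, which makes cholesterol from its last precursor, had 581, 628.9, 376.6 and 431.2, with ratios of 0.11 and 0.20. NSDHL, which acts in the removal of the C4 methyl groups, had 270.6, 315.5, 211.6 and 209.1, with ratios of 0.22 and -0.02. Its probe sets gave opposite signs in A549 and were both below 0 in NCI-H358. HSD17B7, a ketosteroid reductase of the same step, had 0.14 and 0.13. EBP, the sterol isomerase, had 0.10 and -0.01 on its representing probe set, and its 4 probe sets ranged from -0.08 to 0.47 in NCI-H358.

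**Figure D2:**
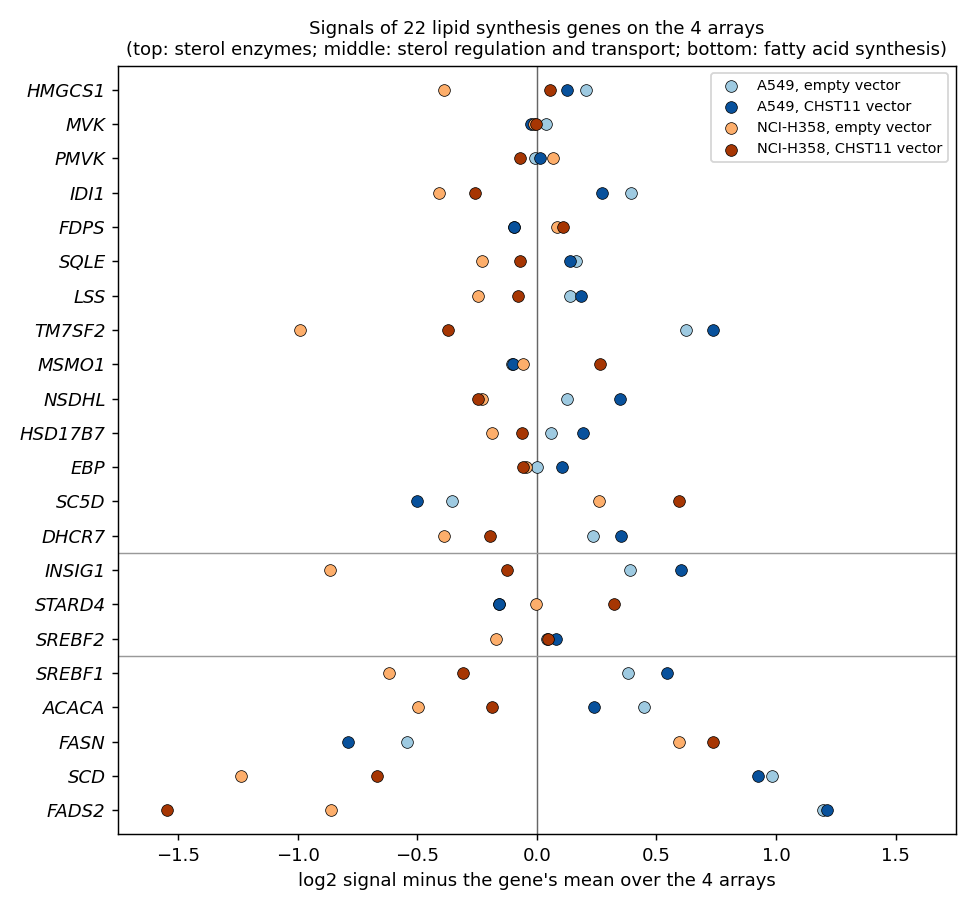
The log2 signal of each measured gene (rows) on the 4 arrays, each minus the mean of that gene over the arrays, so that levels are not compared between genes; blue is A549 and orange NCI-H358, light is empty vector and dark CHST11 vector. For several genes, TM7SF2, SCD, FADS2, FASN and SREBF1 among them, the gap between the blue and orange points is wider than the gap between vectors within a line. For HMGCS1, on its representing probe set, the NCI-H358 array with empty vector lies apart below the other arrays. The other HMGCS1 probe set, not drawn, had 202.1, 216.7, 155.4 and 165.5, with both NCI-H358 arrays below the A549 arrays.

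In the fatty acid arm, 4 of 5 genes had a ratio above 0 in NCI-H358 (median 0.31) and 2 of 5 in A549 (median -0.06). The NCI-H358 median was 0.14 with the median over probe sets of each gene and 0.12 with the probe set nearest 0. SREBF1, which encodes SREBP-1, had signals of 334.9, 375.7, 167.9 and 208, with 0.17 as the ratio in A549 and 0.31 in NCI-H358. Its other probe set gave 0.05 in A549 and, below the filter, -0.13 in NCI-H358. ACACA, the carboxylase that makes malonyl-CoA, had 529, 457.3, 275 and 340.9, with ratios of -0.21 and 0.31. Its other probe set gave -0.07 and 0.00. FASN, the fatty acid synthase, had 194.1, 163.5, 426.4 and 470.4, with ratios of -0.25 and 0.14. ACACA and FASN have long mRNAs but were not on the long mRNA list, whose median in A549 was -0.57. A link of their ratios to mRNA length was not tested.

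SCD, the delta-9 desaturase that makes oleate, had signals of 4005, 3842, 859.6 and 1277, with a ratio of -0.06 in A549 but 0.57 (1.49-fold) in NCI-H358. Its other 3 probe sets gave 0.12 to 0.38 in NCI-H358, all above 0, and 0.29 to 0.32 in A549, opposite in sign to the representing one. FADS2, the delta-6 desaturase of polyunsaturated fatty acid synthesis, had signals of 382.4, 387.1, 91.95 and 57.11. Its ratio was 0.02 in A549 and -0.69 in NCI-H358, where the signal was 1.61-fold lower with CHST11, the opposite direction to SCD. The other FADS2 probe set was also lower in NCI-H358 (-0.46) but lay below the filter there, with 25.19 and 18.33.

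Over probe sets rather than genes, 30 of the 41 measured probe sets of the list were above 0 in NCI-H358 (73.2%, against 51.5% of all single-gene probe sets), with a median of 0.14 against 0.007. In A549 it was 28 of 43 (65.1%, against 55.9%), with medians of 0.038 and 0.019. Of the 11 genes with several measured probe sets in NCI-H358, DHCR7, HMGCS1, INSIG1, MVK and SCD had every probe set above 0, NSDHL had every one below, and the other 5 were mixed. Among all genes with several probe sets there, 27.3% had every one above 0.

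A shared difference between vectors was fitted over both lines with limma, with terms for line and vector. It left 1 residual degree of freedom, moderated by a prior of 3.5. At an adjusted p of 0.05 limma called 0 of 12271 genes (0.0%) and none of the 22. At an unadjusted p under 0.05 it had 374 genes, 1 of the 22 among them. That gene was INSIG1, with a fitted log2 difference of 0.48 (SE 0.151), an unadjusted p of 0.0293 and a limma adjusted p of 1; its signal was higher with CHST11 in 2 of 2 lines. With a trend in the prior, limma again called 0 genes, with 330 at an unadjusted p under 0.05, 2 of the 22 among them.

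The same fit gave the difference between the lines, which shows the setting in which the vectors were compared. Of the 22 genes, 13 differed at an adjusted p of 0.05 by limma, against 64.5% of all 12271 genes tested, so their share (13 of 22) was near that of all genes. A fit with the line term alone called the same 13, with 67.8% of all genes called. With 3 arrays only that form leaves a residual degree of freedom. It called 2 of the 22 without the A549 array with empty vector (FASN and NSDHL, with 44.3% of all genes called) and 3 without the A549 array with CHST11 (FASN, IDI1 and NSDHL, with 43.6%). By direction, 11 were higher in A549, against 30.6% of all genes, and 2 were higher in NCI-H358, against 33.9%. The median difference of the 22, NCI-H358 minus A549, was -0.31 on the log2 scale, and it was 0.029 for all genes. The arrays of a line carry different vectors. In the fit with both terms, the error behind the p-values is therefore the difference in vector response between the lines, moderated by the prior. It is not the spread between repeat cultures of 1 kind.

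All 5 measured genes of the fatty acid arm differed between the lines, where 64.5% of all genes tested did. FADS2 had the widest difference, at -2.41 (SE 0.187, adjusted p = 0.000619 by limma), a signal 5.31-fold higher in A549. SCD followed at -1.90 (SE 0.172, adjusted p = 0.000935 by limma), 3.74-fold higher in A549. All 4 probe sets of SCD were higher in A549, by 0.87 to 1.90. SREBF1 was 1.9-fold higher in A549 (-0.92, SE 0.093, adjusted p = 0.0013 by limma) and ACACA 1.61-fold (-0.68, SE 0.15, adjusted p = 0.015 by limma). The other ACACA probe set gave a smaller difference between the lines, -0.135. FASN went the other way and was 2.51-fold higher in NCI-H358 (1.33, SE 0.126, adjusted p = 0.00108 by limma). The 2 arrays of each line did not overlap with those of the other for any of these 5 genes. The share of all genes without such overlap is not given here, so this is no trait of the arm.

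Among the sterol genes, 7 of 14 enzymes and 1 of 3 genes of regulation and transport differed, against 64.5% of all genes, so both shares were below that of all genes. TM7SF2 was at least 2.48-fold higher in A549, with its NCI-H358 signal raised to the filter where it was under it (fitted difference -1.36, SE 0.147, adjusted p = 0.00159 by limma). INSIG1 was 1.99-fold higher in A549 (-0.99, SE 0.151, adjusted p = 0.00474 by limma). This difference was -1.25 between the empty vector arrays and -0.73 between the CHST11 arrays. IDI1 (-0.67) and DHCR7 (-0.58) were also higher in A549, with limma adjusted p of 0.00557 and 0.00468. So were NSDHL (-0.47), LSS (-0.32) and SQLE (-0.30), with limma adjusted p of 0.0148, 0.0326 and 0.0475. The other measured probe sets of IDI1 gave -0.71 and 0.14, so the dimmer of these went the other way. SC5D was the only one of the 17 called higher in NCI-H358, by 1.81-fold (0.86, SE 0.143, adjusted p = 0.00621 by limma).

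The genes not called between the lines had fitted differences from -0.33 for HMGCS1 to 0.32 for STARD4, with limma adjusted p from 0.0589 for HSD17B7 to 0.965 for PMVK. SREBF2 was among them at -0.12 (SE 0.097, adjusted p = 0.311 by limma), but its other probe sets gave 0.84 and -0.06, so its direction depends on the probe set.

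**Figure D3:**
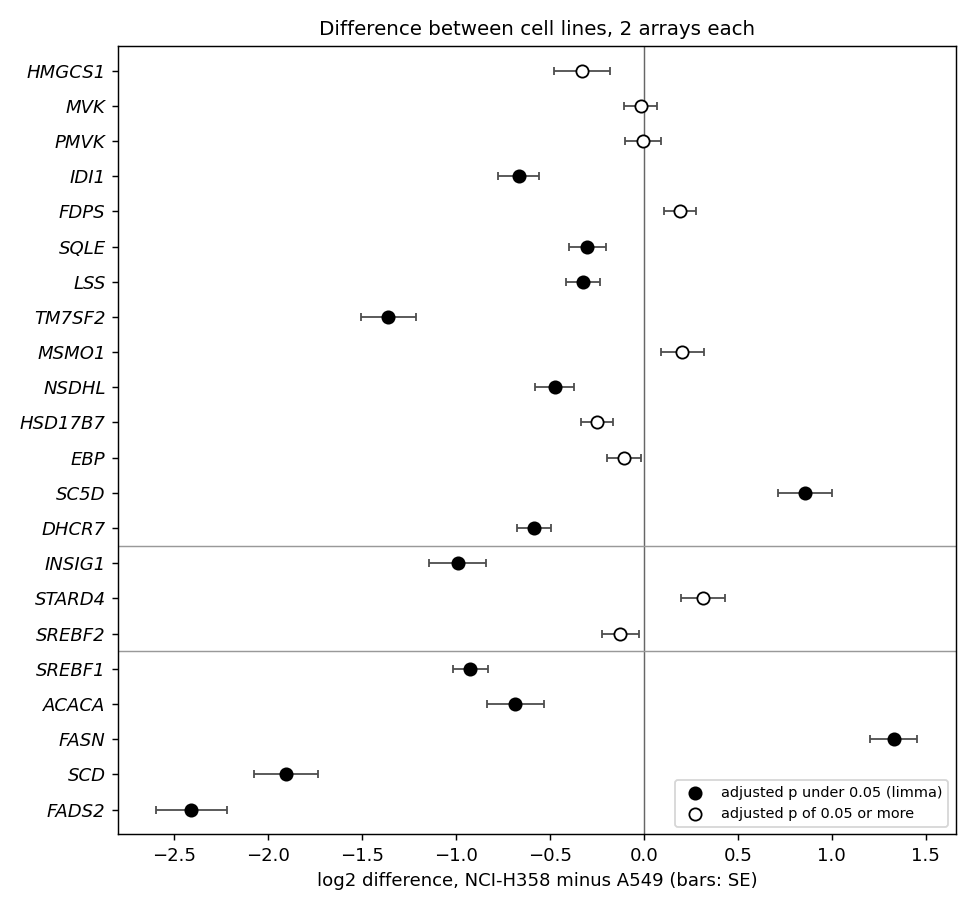
The fitted log2 difference between the lines, NCI-H358 minus A549, for each measured gene (rows), from 2 arrays a line; bars are the SE from limma, and filled points have an adjusted p under 0.05. FADS2 (-2.41) and SCD (-1.90) lie farthest to the A549 side and FASN (1.33) and SC5D (0.86) to the NCI-H358 side.

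Other genes of lipid metabolism were read from lists beside these. Their counts between the lines stand against 30.6% of all genes called higher in A549 and 33.9% called higher in NCI-H358 by limma. Of the other sterol enzymes, 4 were measured, with medians of -0.028 in A549 and 0.081 in NCI-H358. LBR, which also carries sterol C14 reductase activity, had 1282, 1170, 710.5 and 887.6, with ratios of -0.13 and 0.32, the lowest in A549 and the highest in NCI-H358. GGPS1 was the highest in A549 (0.08), and ACAT2, the acetoacetyl-CoA thiolase, the lowest in NCI-H358 (0.01). Of the 4, limma called 3 higher in A549, LBR (-0.62) and ACAT2 (-0.48) among them, and none higher in NCI-H358, where ERG28 had the highest value (0.27).

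The machinery that senses sterols stayed closer to 0 than INSIG1. Its 8 measured genes had medians of 0.032 in A549 and 0.058 in NCI-H358. INSIG2, the relative of INSIG1, was the highest in A549 at 0.14, and PAQR3, a Golgi anchor of SCAP and SREBP, was the lowest at -0.05 and the highest in NCI-H358 at 0.31. SCAP, the SREBP escort, had 0.02 and -0.12, the lowest in NCI-H358. Between the lines limma called 3 of the 8 higher in NCI-H358, with PAQR3 at 1.44 and INSIG2 at 0.56 (adjusted p = 0.00638 by limma), and 1 higher in A549, RNF145 at -0.49. SCAP was at 0.08 (adjusted p = 0.483 by limma).

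Of the genes of sterol uptake and transport, 10 were measured in A549, with a median of -0.008, and 9 in NCI-H358, with a median of 0.068. MYLIP, a ubiquitin ligase induced by LXR, was at 0.35 in A549 and STARD5 at -0.29. OSBPL5 (0.29) and the HDL receptor SCARB1 (-0.20) were the ends in NCI-H358. Between the lines limma called 5 higher in NCI-H358 and 4 higher in A549, with MYLIP at 0.82 and SCARB1 at -1.94. For sterol efflux and LXR genes the medians were 0.16 and -0.09 over 6 genes. LPCAT3 was the highest in A549 (0.32) and the lowest in NCI-H358 (-0.17), and ABCA1, the cholesterol efflux pump, was the reverse (-0.31 and 0.20). ABCA1 was 7.35-fold higher in NCI-H358 (2.88, adjusted p = 0.000198 by limma), and APOC1 was the lowest at -2.54, with 2 genes called higher in NCI-H358 and 3 in A549.

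In lipid esterification and storage, 9 genes had medians of 0.03 and 0.088. PLIN2, a lipid droplet coat protein, was at 0.15 and DGAT2 at -0.30 in A549. In NCI-H358, SOAT1, which esterifies cholesterol, was the highest (0.36) and DGAT1 the lowest (-0.20). Limma called 1 gene higher in NCI-H358, DGAT2 (0.85), and 2 higher in A549, with NCEH1 lowest at -1.10. The 10 genes of isoprenoid use had medians of -0.03 and -0.07. Their ends were ICMT (0.15) and DHDDS (-0.14) in A549 and PGGT1B (0.25) and PDSS2 (-0.21) in NCI-H358. Between the lines 3 were called each way by limma, with DHDDS at 0.54 and PDSS2 at -1.80.

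The other genes of fatty acid synthesis and elongation numbered 22 measured in A549 and 19 in NCI-H358, with medians of 0.041 and 0.076. ACSL4, which activates arachidonate, had signals of 107.5, 90.71, 83.72 and 142.9. It was the lowest in A549 (-0.24) and the highest in NCI-H358 (0.77, 1.71-fold). MLXIPL was the highest in A549 (0.42) and MECR the lowest in NCI-H358 (-0.16). ACLY, which makes cytosolic acetyl-CoA for both routes, had 3879, 3745, 1809 and 1921, with ratios of -0.05 and 0.09. It was higher in A549 by 1.03 on the log2 scale (SE 0.093, adjusted p = 0.00093 by limma). Limma called 13 of the 22 higher in A549 and 2 higher in NCI-H358, with ELOVL6 at 0.80. ELOVL2, an elongase of polyunsaturated fatty acids, was at least 6.49-fold higher in A549, with 170.9 and 179.7 there and signals below the floor in NCI-H358. In fatty acid oxidation, 17 genes had medians of 0.059 and 0.053. The ends were CPT2 (0.18) and ETFDH (-0.19) in A549 and PPARA (0.25) and ACAA2 (-0.53) in NCI-H358. Between the lines limma called 12 higher in A549 and 2 in NCI-H358, with HADH at 0.46 and ACAA2 at -3.72.

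**Figure D4:**
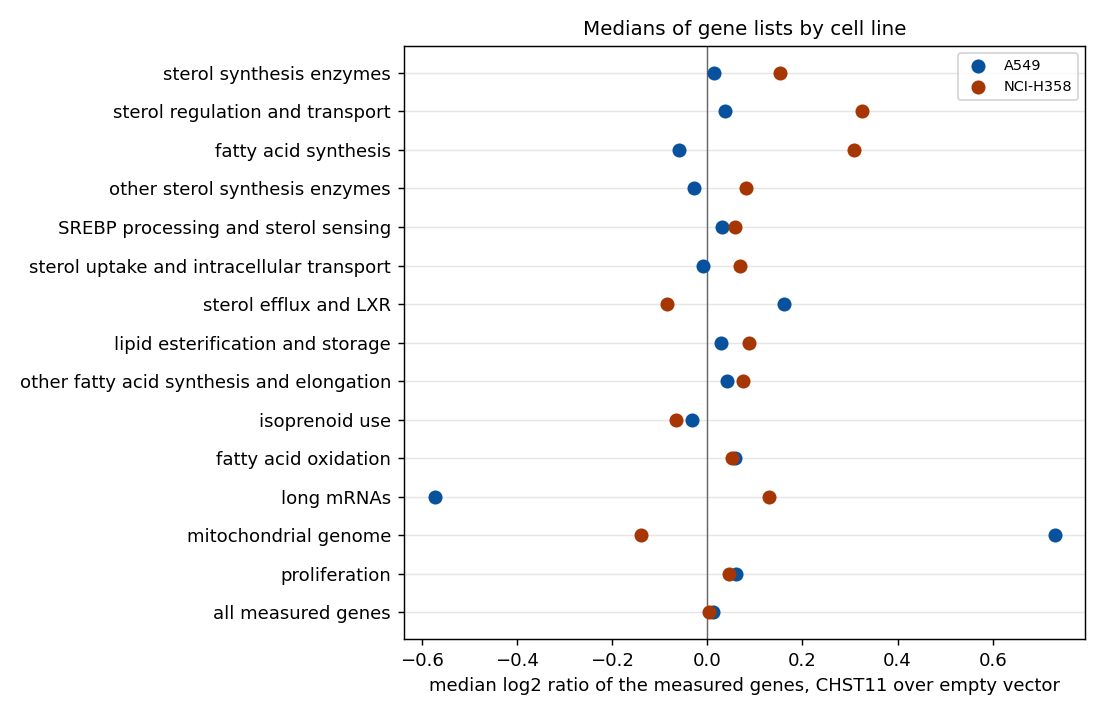
The median log2 ratio, CHST11 over empty vector, of each gene list (rows) in A549 (blue) and NCI-H358 (orange-red), with the long mRNA, mitochondrial genome, proliferation and all-gene medians for comparison. In NCI-H358 the medians of sterol regulation and transport (0.33) and fatty acid synthesis (0.31) lie farthest from 0, and in A549 those of long mRNAs (-0.57) and the mitochondrial genome (0.73) do.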

How the data were processed

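RNA of 4 cell cultures, 1 per group, was hybridised to Affymetrix arrays with 54675 probe sets. The deposited signals are linear intensities that the authors made with MAS5, per the submitters' processing notes, and its version and scaling target were not given there. Scale was settled from the values, and any further normalization stays unknown. The number of arrays limits the precision.

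Groups came from the labels. Values were floored at 16.14 (50th percentile over the 4 arrays) before log2. A gene was measured in a line when it reached 27 (60th percentile) on 1 or more of its 2 arrays. The platform annotation gave 1 symbol for 41091 probe sets and several for 1801, and by Entrez ID 99.9% of those with 1 symbol had a RefSeq record. For each gene the single-symbol probe set of highest mean log2 signal was used, and the others served as a check. The ratio between vectors within a line was counted at 1.5-fold and 2-fold with no test. A model with line and vector terms was fitted to 12271 genes with limma 3.58.1 (R 4.3.3, lmFit, eBayes, Benjamini-Hochberg adjusted p of 0.05). It gave the shared vector difference and the line difference. It was tested on simulated data with the same noise level for every gene. Tables and motif searches used Python 3.11.15, pandas 2.3.3 and NumPy 2.4.6, and plots used matplotlib 3.10.9.

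All 26 genes are named. Signals on all 4 arrays are given for those 1.5-fold apart between vectors or called between lines, and for some others. From each other list the text names the highest and lowest gene per comparison, and SCAP, INSIG2, ACLY and ACAT2 in any case; some genes of the rule are not reported here. The genes, lists, tests and limits were chosen with earlier results of these data known. Alternatives were other normalizations, floors, filters, probe set rules, a prior trend, a fit without the vector term and leaving out each array.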

Additional observations from a re-analysis of the deposited data

Results flagged for a closer look

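SCD and FADS2 had vector ratios of opposite direction in the 2 lines, each on its representing probe set. The log2 ratio of NCI-H358 minus that of A549 was 0.63 for SCD (0.57 against -0.06) and -0.70 for FADS2 (-0.69 against 0.02). With 1 ratio per line the difference was not tested, and the A549 ratios of both genes lay within the gauge of error of 0.158. The other 3 probe sets of SCD were above 0 in both lines, at 0.29 to 0.32 in A549 and 0.12 to 0.38 in NCI-H358, so the opposite direction of SCD holds for 1 of its 4 probe sets. The other FADS2 probe set was below 0 in both lines, at -0.05 and -0.46.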

How the results depend on the processing

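Under the other settings, 418 of the recomputed vector ratios of single genes moved by less than the gauge of error and 20 by more. No vector ratio was called by a test, and some changed sign. With the median of probe sets in NCI-H358, SQLE went from 0.16 to -0.03 and SREBF2 from 0.22 to -0.05. In A549 the same setting took SCD from -0.06 to 0.31 and SREBF2 from 0.04 to 0.45. INSIG1, TM7SF2 and FADS2 kept their direction in NCI-H358 wherever they were measured. In NCI-H358 the fatty acid median (0.31 in the report) was 0.14 with the median of probe sets and 0.12 when each gene took its measured probe set with the ratio nearest 0, a rule added after seeing the data. That rule gave a sterol enzyme median of 0.057 (0.15 in the report). Genes at least 1.5-fold higher numbered 1 with that rule, 1 with the filter at the 75th percentile, 9 at a fold of 1.2 and 11 above the gauge of error (both added after seeing the data); genes at least 1.5-fold lower numbered 0 with the median of probe sets, where FADS2 was at -0.57. Calls between lines were 13 in the report and 13 in a fit with the line term alone (67.8% of all genes called). The latter form, fitted with 1 array left out since 3 arrays allow no vector term, gave 2 to 13: 2 without A549 empty vector (44.3% of all genes called), 3 without A549 CHST11 (43.6%), 10 without NCI-H358 empty vector (52.7%) and 13 without NCI-H358 CHST11 (52.2%). Without the filter it was 1, with 9.63% of all genes called. Of the line differences of single genes, 273 kept direction and call, 44 lost and 13 gained the call, 16 had no test and moved, and 5 reversed. The reversed ones were MVK (0.015 without A549 empty vector, 0.021 with the median of probe sets), PMVK (0.007 without A549 CHST11, 0.063 without NCI-H358 CHST11) and SREBF2 (0.84 with the median of probe sets). The cause was not tested. All-gene medians stayed between -0.021 and 0.027. The line term of the vector fit pairs the arrays by line, and no further pairing is in the labels. Dim genes such as TM7SF2 are limited by signal over the floor.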
